A study of Homo sapiens with 2 samples.

Results

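The genes described here encode subunits of the mitochondrial respiratory chain and ATP synthase, together with C15orf48, a paralog of the complex IV subunit NDUFA4. The subunit genes were taken by symbol from the deposited tables, with 1 row kept per symbol, by a rule that uses no measured value but was written with results of these data known. C15orf48 was added by name. A heat map of the study shows it among the genes picked for their change in these libraries, so its values are given as a description and support nothing. The genes of that heat map also had to appear in public ChIP-seq data for MBD2. The study describes the top upregulated genes among them as having very low expression in the RNA-seq. The rule found 106 of 56638 genes. Of these, 13 are encoded by mitochondrial DNA and 81 by nuclear genes named as subunits, 11 are retrocopies of UQCR genes, which are processed pseudogenes, and the last is C15orf48.

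The RNA came from TFK1, an established human cholangiocarcinoma cell line with no other treatment on the labels, and was sequenced as bulk RNA-seq. The cells carried either a lentiviral shRNA against MBD2, a protein that binds methylated CpG dinucleotides (sh-MBD2), or a negative control shRNA (sh-NC), and transduced cells were kept by drug selection. The labels do not say which shRNA was used. The study made MBD2-sh1 and MBD2-sh2, and its text does not state which of them the RNA-seq cells carried. A single shRNA cannot separate loss of MBD2 from effects of that shRNA. Each condition has 1 library, so the differences given here have no check against replicates and no test between conditions was made. Log2FC is sh-MBD2 over sh-NC after scaling for depth. A range in parentheses after a log2FC is its 95% interval, which covers counting error only.

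The libraries held 14728814 counts in sh-MBD2 and 14467406 in sh-NC. MBD2 had 365 counts in sh-MBD2 and 1013 in sh-NC, a log2FC of -1.48. Of 6 cholangiocyte markers, all were detected, and KRT8, KRT18 and KRT7 had 6277 counts or more in each library. KRT8, KRT18, KRT7, EPCAM and SOX9 were lower in sh-MBD2, with log2FC between -0.73 and -0.17, and KRT19 was higher, at 0.75. Of 6 leukocyte markers, PTPRC, CD3E, TYROBP and CD52 had at most 1 count in a library, LAPTM5 had 29 counts in sh-MBD2 and 3 in sh-NC, and CD14 had 152 and 126. Of 6 fibroblast markers, COL1A1 had 308 counts in sh-MBD2 and 124 in sh-NC, and the others had at most 6 counts in a library. The hepatocyte markers ALB, APOA1 and TTR had at most 3 counts. How far these marker differences contribute to the values below was not tested.

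The respiratory chain passes electrons from NADH and succinate to oxygen through complexes I to IV and pumps protons across the inner mitochondrial membrane, and complex V, the ATP synthase, uses that gradient to make ATP. Subunits come from both genomes. Mitochondrial DNA is transcribed as long polycistronic RNAs that are cut into single messengers, while most subunits are nuclear genes whose products are imported. NDUFA4 was first assigned to complex I and is now counted as a subunit of complex IV. C15orf48, also known as NMES1 or MOCCI, can take the place of NDUFA4 in complex IV, is induced in inflamed cells, and carries the microRNA miR-147b in the same transcript.

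Sequences are shown for C15orf48 and NDUFA4, since they are paralogs and the transcript of the first carries a microRNA whose seed matches the second. Because MBD2 binds methylated CpG, the promoters are printed with each CpG in capitals, from 250 bases before the RefSeq start to 30 bases after it (GRCh38.p14). The C15orf48 window is chr15:45430360-45430639 on the plus strand and the NDUFA4 window is chr7:10940124-10940403 on the minus strand, each written 5′ to 3′. DNA methylation and MBD2 binding were not measured in these libraries.
C15orf48 promoter: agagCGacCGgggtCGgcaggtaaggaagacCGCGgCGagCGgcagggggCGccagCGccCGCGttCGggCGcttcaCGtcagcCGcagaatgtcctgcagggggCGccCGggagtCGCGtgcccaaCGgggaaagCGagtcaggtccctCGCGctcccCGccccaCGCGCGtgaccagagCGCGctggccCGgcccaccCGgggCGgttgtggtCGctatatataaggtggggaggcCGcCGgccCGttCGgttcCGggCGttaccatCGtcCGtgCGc
NDUFA4 promoter: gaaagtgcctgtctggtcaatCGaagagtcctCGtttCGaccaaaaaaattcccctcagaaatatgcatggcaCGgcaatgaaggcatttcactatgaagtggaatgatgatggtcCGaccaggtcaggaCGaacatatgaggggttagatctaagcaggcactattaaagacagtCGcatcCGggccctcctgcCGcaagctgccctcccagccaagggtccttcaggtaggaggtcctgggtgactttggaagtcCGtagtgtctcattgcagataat
The C15orf48 window holds 42 CpG and has a GC content of 73.2%, and 3.47% of the windows of 27305 genes hold at least as many CpG. The NDUFA4 window holds 10 CpG at a GC content of 50.7%, and 54.5% of all windows hold at least as many. The window of NDUFA4L2, the third gene of this family, holds 16 CpG, a number reached by 45.3% of all windows.

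The microRNA in the C15orf48 transcript is shown with its seed, bases 2 to 8, in capitals. Below it stands the stretch of the NDUFA4 3′ UTR that holds the complement of that seed, in capitals, at chr7:10933566-10933595 on the minus strand (GRCh38).
hsa-miR-147b-3p: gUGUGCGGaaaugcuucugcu
NDUFA4 3′ UTR: ttccagaagccacatCCGCACAattttcca
The mature microRNA lies at chr15:45433098-45433118 on the plus strand, and in GENCODE 29 its hairpin is in an exon of both coding transcripts of C15orf48, after the stop codon. Only 1 miRNA in the RefSeq table has this seed. The NDUFA4 3′ UTR has a single match to it, which starts at position 56 of 1685 bases. Of 82 members with a 3′ UTR that could be searched, NDUFA4 alone held the match, against 453 of 19108 3′ UTRs, or 2.37%, over all genes. A match is a description of the sequence and not evidence of a site in use. MIR147B itself had 0 counts in both libraries, and reads of the C15orf48 messenger do not measure the mature microRNA.

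C15orf48 was detected in sh-MBD2 and listed at 0 in sh-NC. It had 69 counts in sh-MBD2, with an exact Poisson interval from 53.7 to 87.3 counts, and 0 counts in sh-NC. This is 13.8 TPM, a read level corrected for gene length and depth, against a limit of 0.615 TPM that a count of 0 allows at 3 counts. Against 3 counts in sh-NC its scaled count was at least 22.9-fold higher in sh-MBD2, a log2FC of 4.51, which takes the 69 counts as exact. With the counting error of both libraries the interval of its log2FC starts lower, at 4.18. The fitted log2FC of 7.11 depends on the prior count of 0.5 and is no bound. By that fitted value C15orf48 was number 6 of the 17545 genes that had 10 or more counts in all, a filter it passed through its reads in sh-MBD2 alone. With 0 counts in sh-NC and at least 69 in sh-MBD2 there were 5 genes, and with up to 3 counts in sh-NC there were 8. These cutoffs were set from the counts of C15orf48 itself, so its place among these genes was fixed in advance.

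At 13.8 TPM in sh-MBD2, C15orf48 was above 15 of the 81 nuclear-encoded members. It overlaps 2 same-strand genes, MIR147B and RP11-519G16.3, of which the second had 16 counts in sh-MBD2 and 7 in sh-NC. It also overlaps 2 genes on the opposite strand, and the sources used here do not say whether counting used the strand. Reads from overlapping genes cannot be fully told apart, and the part of these overlaps in the counts of C15orf48 was not tested.

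NDUFA4, the paralog found in complex IV in most tissues, had 1316 counts in sh-MBD2 and 1565 in sh-NC, which is 108 and 132 TPM and a log2FC of -0.26 (-0.37 to -0.15). That value stands at percentile 11.7 of the 5864 genes with at least 1000 counts, so NDUFA4 was lower in sh-MBD2 by more than counting error while lying within the range of other well-counted genes. The TPM of C15orf48 was 12.8% of that of NDUFA4 in sh-MBD2, against at most 0.467% in sh-NC. NDUFA4L2, a further paralog known as a target of hypoxia signalling, had 11 counts in sh-MBD2 and 16 in sh-NC, for a log2FC of -0.53, whose interval ran from -1.80 to 0.65. The family thus held 3 different patterns: a gene near absence in sh-NC and present in sh-MBD2, an abundant gene slightly lower in sh-MBD2, and a gene with too few reads to order its levels.

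**Figure D1:**
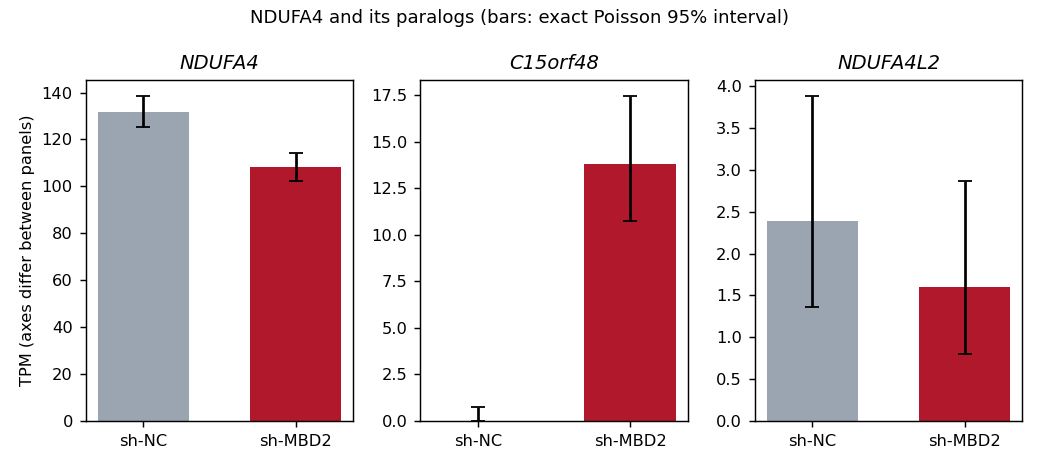
TPM of NDUFA4, C15orf48 and NDUFA4L2 in the sh-NC and sh-MBD2 libraries, with exact Poisson 95% intervals as error bars and a separate vertical axis in each panel. NDUFA4 went from 132 to 108 TPM and C15orf48 from 0 to 13.8 TPM, while the intervals of NDUFA4L2 overlap.

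The subunit genes as a whole lay close to 0. Of the 106 members, 92 had at least 10 counts. Among the 92, C15orf48 was the only member with a log2FC above 1, against 5.48% of all 17545 genes, and NDUFA13 and COX6B2 were below -1, against 5.07% of all genes. Each of these 3 genes overlaps another gene on the same strand. At a log2FC of 0.5, C15orf48 and the retrocopy UQCRFS1P1 were above and 5 members were below, where 12.8% and 13.2% of all genes lay. The 5 lower members were NDUFA13, NDUFA11, NDUFB4, COX6B2 and NDUFA4L2, and of these only NDUFB4 had at least 100 counts. The median log2FC of the 90 subunit genes with at least 10 counts was 0.00, with 45 higher and 45 lower, beside a median of -0.01 and 48.9% higher over all 17545 genes.

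Depth narrows these ranges, so the well-counted genes are the closer background. Of the 49 nuclear-encoded members with at least 1000 counts, none was above a log2FC of 0.5, where 3.63% of the 5864 genes with that many counts lay, and NDUFB4 alone was below -0.5, where 2.95% lay. None of the 49 was past 1 or -1, against 1.06% above and 0.375% below among all such genes. Of the 49, 19 were higher and 30 lower in sh-MBD2, beside 52.4% higher among all such genes, and by TPM the split was 11 higher and 38 lower, beside 46.1% higher among all such genes. The median of the 49 was -0.02 and that of all such genes was 0.01. The pooled log2FC of the 49 was -0.05 (-0.06 to -0.03).

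**Figure D2:**
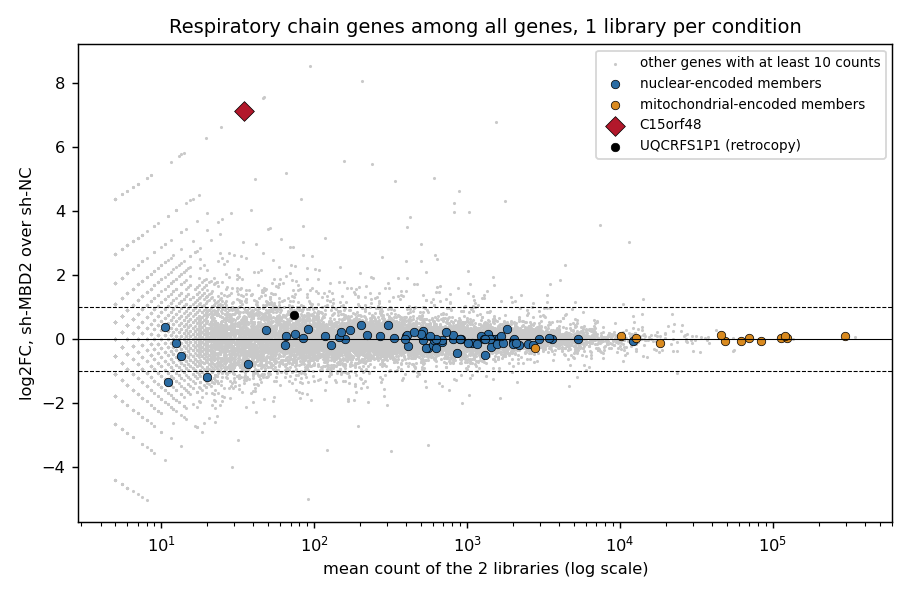
Log2FC of sh-MBD2 over sh-NC against the mean count of both libraries (log scale) for the 17545 genes with at least 10 counts, with dashed lines at 1 and -1. Nuclear-encoded and mitochondrial-encoded members lie close to 0 wherever reads are many, and C15orf48 stands above 7 at a mean count under 100.

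The genes of the mitochondrial genome were the most abundant members and differed little between the libraries. Together the 13 genes took 1020789 counts in sh-MBD2 and 989954 in sh-NC, or 6.93% and 6.84% of all counts, and 17.8% of TPM in each library. Pooled, their log2FC was 0.04 (0.03 to 0.04), and the median of the 13 was 0.03. That median was 0.00 by TPM, on the negative side, so no direction is given for the group. The nuclear-encoded members took 0.577% of counts in sh-MBD2 and 0.600% in sh-NC, a pooled log2FC of -0.04 (-0.05 to -0.03), with a median over 77 genes of 0.00, of which 37 were higher and 40 lower. Each scaling moves all genes alike. By TPM the split was 27 higher and 50 lower, where 45.6% of all 17545 genes were higher, and with DESeq2 size factors it was 41 and 34 with the rest equal, where 49.7% of all genes were higher. The median of the mitochondrial-encoded genes exceeded that of the nuclear-encoded ones by 0.03.

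Within the mitochondrial genome the single genes differed by more than counting error, since their counts are high. The log2FC ranged from -0.28 for MT-ATP8 to 0.12 for MT-ATP6. Counting intervals lay above 0 for 7 genes and below 0 for 5, and MT-ND3 spanned 0. Among the 5864 genes with at least 1000 counts, 30.4% of intervals lay above 0 and 26.8% below. By TPM only 4 of the 13 were higher in sh-MBD2, namely MT-CO1, MT-CO3, MT-ATP6 and MT-ND4L, and these were higher under every scaling tried. MT-ND1, MT-ND5, MT-ND6, MT-CYB and MT-ATP8 were lower under every scaling, and MT-ND2, MT-ND3, MT-ND4 and MT-CO2 changed sign.

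The catalytic core of complex IV is encoded by MT-CO1, MT-CO2 and MT-CO3. MT-CO1 had the most reads of any member, with 305159 counts in sh-MBD2 and 285985 in sh-NC and a log2FC of 0.08. MT-CO3 had 124139 and 116173 counts and a log2FC of 0.09. MT-CO2, which was lower by TPM, had 113890 and 111221 counts and a log2FC of 0.03. The pooled log2FC of the 3 genes was 0.07 (0.07 to 0.08).

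MT-CYB encodes cytochrome b, the mitochondrial-encoded subunit of complex III. It had 60796 counts in sh-MBD2 and 62906 in sh-NC, a log2FC of -0.06 (-0.07 to -0.04).

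Of the complex I subunits made in mitochondria, MT-ND4L was the highest by log2FC, with 10431 counts in sh-MBD2 and 9708 in sh-NC, at 0.09. MT-ND4 had 125641 and 122507 counts, MT-ND2 had 70481 and 68794, and MT-ND3 had 12778 and 12564, with log2FC of 0.03, 0.03 and 0.02. MT-ND1 had 47798 counts in sh-MBD2 and 49794 in sh-NC, and MT-ND5 had 81772 and 84313, with log2FC of -0.07 and -0.05. MT-ND6 is the only member encoded on the light strand and is transcribed from the opposite promoter. It had 17375 counts in sh-MBD2 and 19011 in sh-NC, a log2FC of -0.14 (-0.17 to -0.11), the lowest of the 7 complex I genes. The sources used here do not say whether counting used the strand, so reads from the opposite strand cannot be set apart.

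MT-ATP6 and MT-ATP8 encode membrane subunits of the ATP synthase and lie on the same messenger, yet they stood at opposite ends of the range. MT-ATP6 had 47996 counts in sh-MBD2 and 43924 in sh-NC, a log2FC of 0.12 (0.10 to 0.14). MT-ATP8 had 2533 and 3054 counts, a log2FC of -0.28 (-0.36 to -0.20). For every 100 reads on MT-ATP6 there were 5.28 on MT-ATP8 in sh-MBD2 and 6.95 in sh-NC. MT-ATP8 spans 207 bases, of which 46 overlap MT-ATP6, and reads in an overlap can be assigned to neither gene or to either. MT-ATP6 also shares 1 base with MT-CO3, and MT-ND4L shares 7 bases with MT-ND4. A nuclear copy of MT-ATP6, MTATP6P1, had 7059 counts in sh-MBD2 and 5841 in sh-NC, a log2FC of 0.26. MTND2P28, a nuclear copy of MT-ND2, had 3366 and 3495 counts, a log2FC of -0.06 (-0.13 to 0.01). Reads from the mitochondrial genes may be placed on such copies. The part of overlaps and copies in these differences was not tested.

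The mitochondrial ribosomal RNAs, from the same genome but outside the members, were both higher in sh-MBD2. MT-RNR1 had 28941 counts in sh-MBD2 and 25735 in sh-NC, a log2FC of 0.16, and MT-RNR2 had 355082 and 337845, a log2FC of 0.06. Per length, the 13 protein-coding genes spanned a 12.6-fold range of TPM in sh-NC although they derive from shared precursors. This spread was far wider than the difference of any of the 13 between the libraries. Its low end was MT-ATP8 alone, at 2647 TPM in sh-NC, and the next lowest was MT-ND4L, at 5865.

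**Figure D3:**
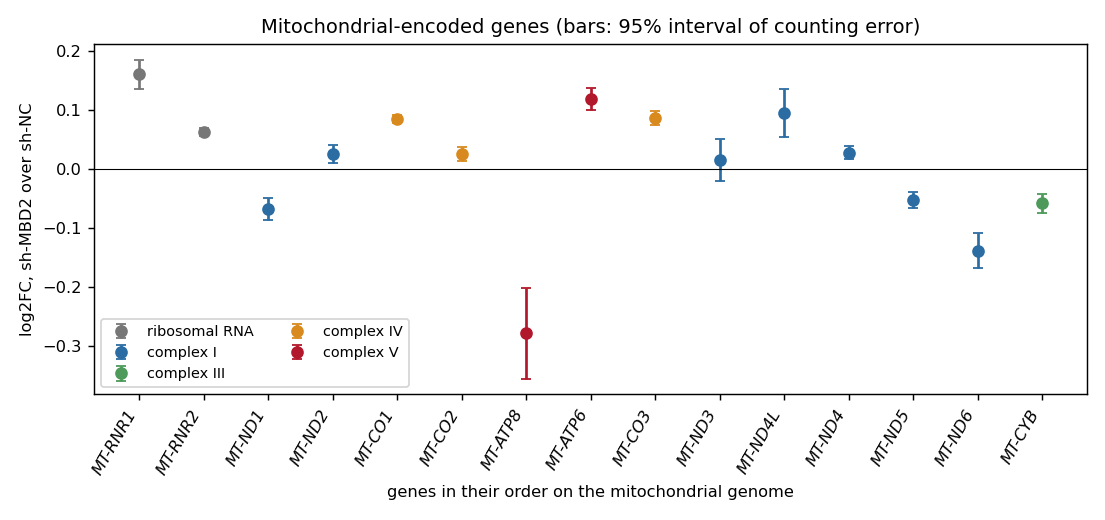
Log2FC of sh-MBD2 over sh-NC for the ribosomal RNA and protein-coding genes of the mitochondrial genome in gene order, colored by complex, with 95% intervals of counting error. MT-ATP8 at -0.28 and MT-ATP6 at 0.12 are neighbors at the opposite ends of the protein-coding genes.

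Complex I takes electrons from NADH, and 36 of its nuclear-encoded members passed the count filter. Their median log2FC was 0.00, with 18 higher and 18 lower, and by TPM 13 were higher and 23 lower. Counting intervals lay above 0 for 3 of the 36 and below 0 for 8, where 19.7% of all 17545 genes lay above and 18.4% below. NDUFB4, an accessory subunit of the membrane arm, was the lowest with at least 100 counts. It had 1090 counts in sh-MBD2 and 1542 in sh-NC, or 134 and 194 TPM, a log2FC of -0.51 (-0.62 to -0.40). This is at percentile 2.85 of the 5864 genes with at least 1000 counts.

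NDUFS4, an accessory subunit of the matrix arm whose mutations cause Leigh syndrome, had 499 counts in sh-MBD2 and 608 in sh-NC, and NDUFA8 had 483 and 585, each with a log2FC of -0.29. NDUFB9, another membrane-arm subunit, was the highest with at least 100 counts, at 557 and 465 counts and a log2FC of 0.25 (0.07 to 0.43). NDUFS5 was the nuclear-encoded complex I gene with the highest TPM, at 465 in sh-MBD2 and 425 in sh-NC, and its log2FC was 0.16 (0.05 to 0.27). The lower and the higher genes thus included subunits of the same arm.

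NDUFA13, also known as GRIM-19, had 12 counts in sh-MBD2 and 28 in sh-NC, a log2FC of -1.20 (-2.34 to -0.21). NDUFA11 had 27 and 47 counts, a log2FC of -0.80 (-1.55 to -0.10). Both overlap other genes on the same strand, NDUFA13 with YJEFN3 and NDUFA11 with FUT5 among others, and their TPM of 4.31 or less in each library was far below the complex I median of 53.4 in sh-NC. Whether reads of either gene were lost to the overlap was not tested. The 7 nuclear-encoded core subunits, which hold the flavin and iron-sulfur clusters, had a median log2FC of 0.04 with 4 higher, and the 29 accessory subunits had a median of -0.01 with 14 higher.

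Complex II, succinate dehydrogenase, links the chain to the tricarboxylic acid cycle and is encoded by nuclear genes only. SDHA, the flavoprotein, had 2370 counts in sh-MBD2 and 2626 in sh-NC, a log2FC of -0.16 (-0.24 to -0.08). SDHB, the iron-sulfur subunit, had 978 and 1059 counts, which gave a log2FC of -0.12 and counting limits of -0.25 and 0.00. SDHD, a membrane anchor, had 1037 and 1127 counts and a log2FC of -0.13 (-0.25 to -0.01). SDHC, the other anchor, had 1281 and 1190 counts, and a log2FC of 0.10 with interval ends of -0.02 and 0.21. So 3 of the 4 genes were lower under every scaling, with a pooled log2FC of -0.09 (-0.14 to -0.04). The SDHA copies SDHAP1 and SDHAP3 had 188 and 199 counts in sh-MBD2 against 190 and 168 in sh-NC, and with the reads of its copies added the log2FC of SDHA was -0.12.

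Complex III passes electrons from ubiquinol to cytochrome c. The median log2FC of its 8 nuclear-encoded genes was 0.02, with 5 higher and 3 lower, and by TPM 3 were higher and 5 lower. UQCRQ, a small subunit that binds ubiquinone, was the highest, with 233 counts in sh-MBD2 and 171 in sh-NC and a log2FC of 0.44 (0.15 to 0.73). UQCR11 had 785 and 678 counts and a log2FC of 0.20 (0.05 to 0.35). UQCRB was the lowest, with 1940 and 2021 counts, for a log2FC of -0.07, whose interval ran from -0.16 to 0.02.

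UQCRFS1, the Rieske iron-sulfur protein, had 3614 counts in sh-MBD2 and 3559 in sh-NC, a log2FC of 0.01 (-0.05 to 0.08). Its retrocopy UQCRFS1P1 had 93 counts in sh-MBD2 and 55 in sh-NC, a log2FC of 0.74 (0.25 to 1.26). A retrocopy resembles its parent gene and their reads may not be told apart, and with the 2 genes pooled the log2FC was 0.03. The other 10 retrocopies had at most 2 counts in a library: UQCRHP2 had 2 in sh-NC, UQCRBP1 had 1 in sh-NC, UQCRBP3 had 2 in sh-MBD2, and UQCRHP1, UQCRHP3, UQCRHP4, UQCRC2P1, UQCRBP2, UQCRFS1P2 and UQCRFS1P3 had 0 in both.

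Complex IV, cytochrome c oxidase, reduces oxygen. Its nuclear-encoded members had a median log2FC of -0.15 over 12 genes, with 4 higher and 8 lower, and the median lay between -0.17 and -0.14 under every setting tried. Pooled, their log2FC was -0.10 (-0.14 to -0.07), where its mitochondrial-encoded genes pooled to 0.07 (0.07 to 0.08). Without replicates it cannot be said whether this difference in sign exceeds the variation between cultures. The nuclear-encoded values leave out COX4I1, a subunit of this complex that the symbol rule does not reach. It had 3466 counts in sh-MBD2 and 3419 in sh-NC, a log2FC of 0.01 (-0.06 to 0.08).

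COX7A2 was the lowest with at least 100 counts, at 730 counts in sh-MBD2 and 981 in sh-NC and a log2FC of -0.44 (-0.58 to -0.30). COX6B1, which caps the intermembrane side and was the complex IV gene with the highest nuclear TPM, had 2543 and 2865 counts and a log2FC of -0.18 (-0.26 to -0.10). COX5B, COX7B and COX7C had log2FC of -0.16, -0.15 and -0.14, each with an interval below 0. NDUFA4, described above with C15orf48, was thus among 6 of the 12 genes of this complex with intervals below 0. Intervals lay below 0 for 18.4% of all 17545 genes and for 26.8% of the 5864 genes with at least 1000 counts.

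COX5A went the other way. It had 2025 counts in sh-MBD2 and 1637 in sh-NC, a log2FC of 0.30 (0.20 to 0.39), at percentile 90.1 of the genes with at least 1000 counts. COX5A and COX5B are peripheral subunits of the same enzyme, so its genes did not differ in a common direction. COX6A1 had the highest log2FC, 0.32, from 102 and 81 counts with an interval from -0.11 to 0.76. COX6B2, a testis isoform, had 6 counts in sh-MBD2 and 16 in sh-NC, which gave a log2FC of -1.35 and counting limits of -3.07 and 0.00. COX6A2, COX7B2 and COX8C, isoforms known from muscle or testis, had 0 counts in both libraries.

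Complex V, the ATP synthase, had a median log2FC of 0.01 over 16 nuclear-encoded genes, with 9 higher and 7 lower, and by TPM 7 were higher and 9 lower. ATP5B, the catalytic beta subunit, had the highest TPM of the nuclear-encoded members, at 1165 in sh-MBD2 and 1233 in sh-NC. Its 11920 and 12290 counts gave a log2FC of -0.05 (-0.09 to -0.02). ATP5C1, the gamma subunit of the central stalk, had 2934 and 2949 counts and a log2FC of -0.02 (-0.09 to 0.06).

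The parts of the enzyme differed in median. The 5 genes of the F1 head had a median log2FC of -0.01, the 3 genes of the c ring -0.13, and the 7 genes of the peripheral stalk and membrane part 0.28, of which 6 were higher and 1 lower. Pooled by reads, these 7 genes had a log2FC of only 0.08 (0.01 to 0.15), and their median leans on genes with few counts, such as ATP5I with 12 counts in sh-MBD2 and 9 in sh-NC and ATP5O with 53 and 43. ATP5L, subunit g, was the highest with at least 100 counts, at 350 counts in sh-MBD2 and 257 in sh-NC and a log2FC of 0.44 (0.20 to 0.67). ATP5H, subunit d of the peripheral stalk, was the lowest, at 565 and 688 counts and a log2FC of -0.29 (-0.46 to -0.13). Of the 7 genes, 2 had intervals above 0 and 1 below, beside 19.7% above and 18.4% below over all 17545 genes. The middle gene of the 7, ATP5J2, had 340 counts summed with an interval from -0.04 to 0.60. ATP5L2 had 0 counts in both libraries.

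**Figure D4:**
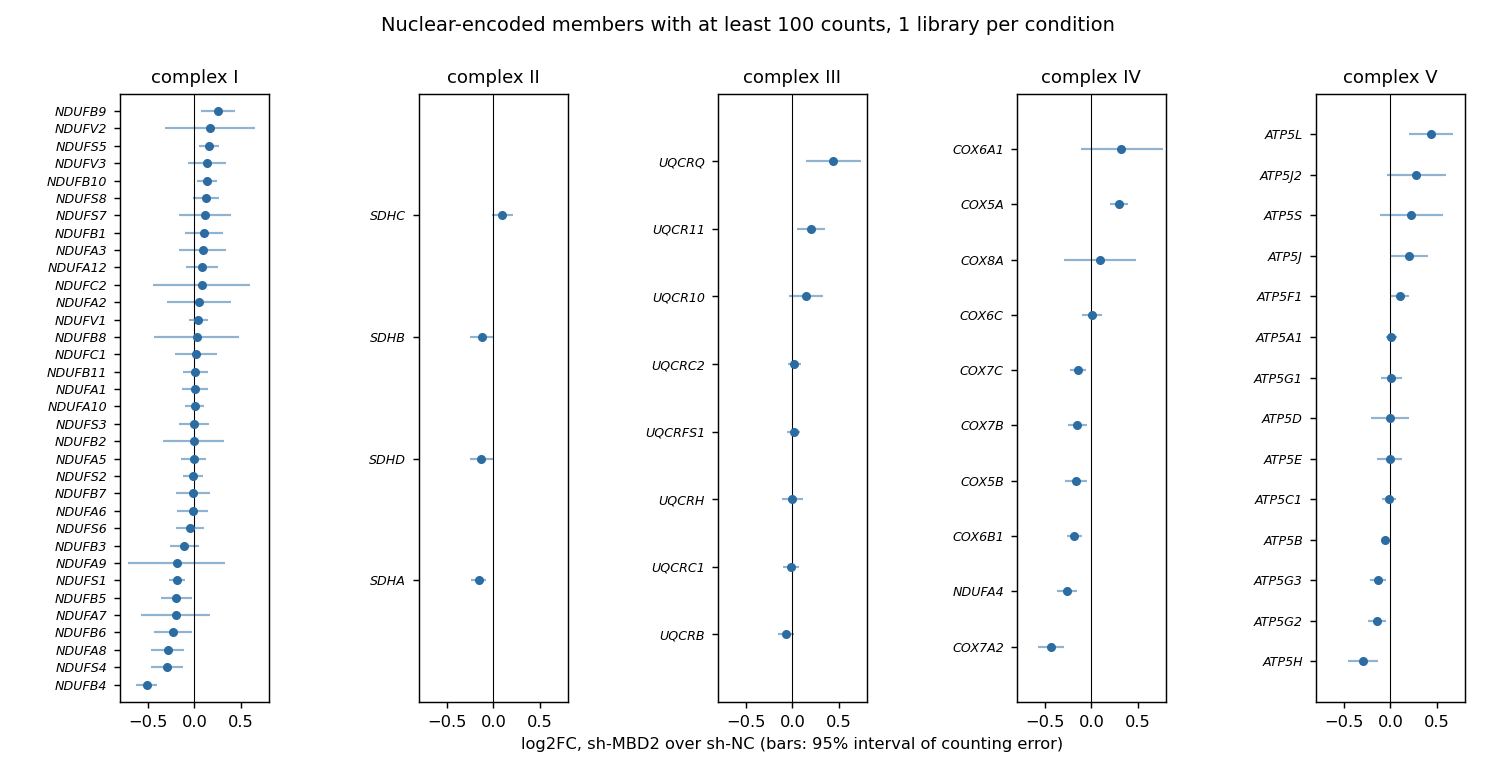
Log2FC of sh-MBD2 over sh-NC with 95% intervals of counting error for the 70 nuclear-encoded members with at least 100 counts, sorted within each complex. NDUFB4 at -0.51, COX7A2 at -0.44, UQCRQ at 0.44 and ATP5L at 0.44 are the genes farthest from 0.

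Reads of the nuclear-encoded members can be affected by neighbors and copies. In the positions the tables give, 29 of the 81 overlap another gene on the same strand. The 27 of these with at least 10 counts had a median log2FC of -0.02, and the 50 without such an overlap had a median of 0.01 and were 26 higher and 24 lower. Some of the 50, such as ATP5H and NDUFB9, overlap genes on the opposite strand. Those overlaps were not part of the split, although it is not known whether counting used the strand. The tables hold 132 rows named as pseudogene copies of 37 of the nuclear-encoded members. Of these rows 94 were at 0 in both libraries and 10 had at least 10 counts. Pooling with copies moved NDUFV2 the most, from a log2FC of 0.16 to 0.03, since NDUFV2 had 79 counts in sh-MBD2 and 70 in sh-NC and its copy NDUFV2P1 had 24 and 30. SDHA, given above, moved the next most.

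NDUFB4 was the well-counted subunit gene with the lowest log2FC, and its promoter is shown as an example of a motif found often in this set. The capitals mark the core letters bound by nuclear respiratory factor 1 (NRF1), an activator of many respiratory chain genes, read on both strands as GCATGCGC, with 2 overlapping matches. The window is chr3:120596086-120596365 on the plus strand (GRCh38.p14).
NDUFB4 promoter: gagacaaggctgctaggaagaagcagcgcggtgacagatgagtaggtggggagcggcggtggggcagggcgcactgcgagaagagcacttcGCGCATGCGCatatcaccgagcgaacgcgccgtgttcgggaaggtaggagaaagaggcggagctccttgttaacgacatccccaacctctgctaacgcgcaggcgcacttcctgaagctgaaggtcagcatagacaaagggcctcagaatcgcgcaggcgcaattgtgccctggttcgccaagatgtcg
Of the 81 nuclear-encoded members, 66 had a promoter window in the RefSeq table. They held a median of 20 CpG, from 0 to 39, against 12 over all 27305 windows, so the 42 CpG of C15orf48 exceeded every one of them. GCATGCGC was in 13 member windows, or 19.7%, against 3.19% of all windows. CCGGAAGT, the core bound by ETS factors such as GABP, was in 9, or 13.6%, against 4.34%. AAGATGGCG, the core of YY1, was in 6, or 9.09%, against 1.48%. The NF-kB consensus was in 3 member windows, or 4.55%, against 5.41%. All 4 were searched on both strands, and neither C15orf48, NDUFA4 nor NDUFA4L2 held any of them in this window. The 13 members with the NRF1 core had a median log2FC of -0.05, beside 0.00 for the 50 tested members without it. The 6 members with the YY1 core had a median of -0.16 and the 9 with the ETS core a median of -0.13, beside 0.00 for the members without each. These medians rest on few genes and a match is not a bound site. The windows of all genes were not matched to the members in CpG content, and the part of CpG content in the motif shares was not tested.

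Other genes of the pathway were described from lists that were chosen by role. Of 20 regulators of mitochondrial transcription and biogenesis, 14 were higher in sh-MBD2, beside 48.9% of all 17545 genes, and their median log2FC was 0.06. No test was made of the list, which was chosen with results of these data known. PPARGC1B and PPARGC1A, related coactivators of mitochondrial biogenesis, lay at opposite ends. PPARGC1B had 224 counts in sh-MBD2 and 143 in sh-NC, a log2FC of 0.64 (0.33 to 0.95), and PPARGC1A had 328 and 489, a log2FC of -0.58 (-0.79 to -0.38). MTERF, a termination factor, had 330 and 233 counts and a log2FC of 0.49. TFAM, which packages mitochondrial DNA and activates its transcription, had 2259 and 1807 counts and a log2FC of 0.31 (0.22 to 0.40). GABPA, an ETS factor, had 648 and 733 counts and a log2FC of -0.19 (-0.34 to -0.03), and NRF1 had 293 and 280 counts and a log2FC of 0.06 with an interval from -0.18 to 0.30.

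Assembly factors, which build the complexes without being part of them, split evenly. Of 45 with at least 10 counts, 22 were higher and 23 lower, with a median log2FC of 0.00. COX16 and UQCC1 were the highest with at least 100 counts, at log2FC of 0.51 and 0.49 from 159 and 111 counts and from 863 and 611 counts. COX18 and UQCC2 were the lowest, at -0.40 and -0.28 from 238 and 312 counts and from 196 and 236 counts. Subunits and carriers that the symbol rule does not reach had a median of 0.04 over 10 genes, from -0.21 for COX7A2L, a factor that joins complexes III and IV, to 0.18 for NDUFAB1, the mitochondrial acyl carrier protein. CYC1 and CYCS, the cytochromes c1 and c, had log2FC of -0.03 and 0.07, and HIGD1A had 0.13. The lowest after COX7A2L was ATPIF1, the ATP synthase inhibitor, at -0.09, and the second highest was HIGD2A at 0.18.

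The tricarboxylic acid cycle and its entry enzymes had a median log2FC of 0.00 over 18 genes, with 9 higher and 9 lower. IDH2 had 1043 counts in sh-MBD2 and 808 in sh-NC, a log2FC of 0.36, and DLD had 2464 and 2121, a log2FC of 0.21. PC, pyruvate carboxylase, had 379 and 530 counts, a log2FC of -0.49, and PDHB had 662 and 804, a log2FC of -0.29.

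Of a list of genes on oxidants and uncoupling, 9 had at least 10 counts, with a median log2FC of -0.08, and 2 stood far from the rest. SOD2, the superoxide dismutase of the mitochondrial matrix, had 7248 counts in sh-MBD2 and 1447 in sh-NC, or 88.9 and 18.2 TPM, a log2FC of 2.32 (2.23 to 2.40). AOX1, a cytosolic aldehyde oxidase that itself produces oxidants and so stands apart from the mitochondrial genes of the list, had 91 and 27 counts, a log2FC of 1.73 (1.11 to 2.42). UCP3 had 45 and 64 counts, and a log2FC of -0.51 with interval ends of -1.10 and 0.06. TXNRD2, the mitochondrial thioredoxin reductase, had 226 and 290 counts and a log2FC of -0.37 (-0.63 to -0.11). UCP2 and PRDX3 had log2FC of -0.15 and -0.02. IRG1, which makes itaconate in inflamed macrophages, had 0 counts in both libraries. No subunit gene of the respiratory chain approached the difference of SOD2, and C15orf48 was the only member past it.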

How the data were processed

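RNA-seq of TFK1 cells carrying sh-MBD2 or sh-NC was analyzed, with 1 library per condition. The authors deposited whole-number read counts per gene, without normalization, and TPM per gene. The submitters' processing notes name fastp, HISAT2 2.1.0, featureCounts, DESeq 1.18.1 and GRCh38.p13, in no stated order. Gene positions in the tables differ from GENCODE 29 (GRCh38), so none is printed, and strandedness is not given in the sources used here. Rows sharing a symbol repeat its values, so 1 row per symbol was kept (56638 genes of 63677 rows), after which each library's deposited TPM totalled 1000000. The tables also hold no columns of other samples.

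Counts were scaled with TMM (edgeR 4.0.16, R 4.3.3). A prior of 0.5 counts, in proportion to depth, was added before log2FC was taken, and genes under 10 counts in all were left out. The 95% intervals (exact Clopper-Pearson, scipy 1.17.1) treat each gene's reads as divided between the libraries. The 3-count floor and all intervals cover counting error only, and reads without molecular identifiers are not independent molecules. Alternatives were total counts, upper-quartile scaling, DESeq2 1.42.0 size factors, TMM on nuclear genes, log2 of TPM plus 0.1 or 1, other priors and other count filters. Named genes are the 13 mitochondrial-encoded genes, the NDUFA4 family, the highest and lowest member of each complex and the 2 highest and 2 lowest of each list with at least 100 counts, members past 0.5 or -0.5, the 5 nuclear-encoded members with the highest TPM, members under 10 counts, and MBD2. Other genes, such as COX5A, COX5B, NDUFA8, NDUFV2 and NRF1, were chosen for naming with their values known. The members and lists were chosen with earlier results of these data known. Promoters and miRNAs are RefSeq sequences (GRCh38.p14), and 3′ UTRs are those of GENCODE 29. Scripts were tested on simulated data.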

Additional observations from a re-analysis of the deposited data

How the results depend on the processing

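Over 133 combinations of a result and an alternative, 118 values stayed within the yardstick and 15 moved beyond it. Some of these values could hardly move, as given below for the gap between medians, so the tally does not measure robustness. The yardstick was the median counting half-interval of the genes concerned or 1.5 times a count. For C15orf48 it was only the lower end of its counting interval, 4.18, with no upper limit. A reversal of direction was scored for C15orf48 alone, which was higher in sh-MBD2 under every setting that kept it. Medians close to 0 did change sign. That of the nuclear-encoded complex III genes, for example, went from 0.0162 to -0.0119 with log2 of TPM plus 0.1 or 1. The median log2FC of the 13 mitochondrial-encoded genes, 0.0253, was 0.0084 with total counts and -0.0028 with log2 of TPM plus 0.1 or 1. For the mitochondrial-encoded genes of complex I it went from 0.0155 to -0.0126 with both TPM scales, and for those of complex IV from 0.0848 to 0.0678 with total counts and 0.0567 with both TPM scales. The number of members past a log2FC of 1 or -1, which was 3, was 1 with log2 of TPM plus 1, 6 with at least 1 count and 0 with at least 100 counts, a filter that removes C15orf48. The number past 0.5 or -0.5, which was 7, was 2 with at least 100 counts. The log2FC of C15orf48, 7.11, was 3.89 with log2 of TPM plus 1 and 9.43 with a prior of 0.1 counts. The nuclear-encoded median ranged from -0.03 to 0.01, and its gap to the mitochondrial-encoded median from 0.02 to 0.03. The yardstick of both was 0.1553, far wider than these ranges. A scaling of counts shifts all genes alike, so the gap was fixed at 0.0268 under each of those alternatives. Without members that overlap a same-strand gene, an alternative chosen after seeing the data, the number past 1 or -1 was 0 and the number past 0.5 or -0.5 was 3. C15orf48, NDUFA13 and COX6B2 all have such an overlap, as does NDUFA11, which was past -0.5 only. Without the overlapping mitochondrial genes, also chosen after seeing the data, the mitochondrial-encoded median was 0.0155.

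Leaving out a replicate was not possible with 1 library per condition. No paired analysis was possible because there is only 1 library on each side. Depth limits members with few reads, such as NDUFA4L2, NDUFA13 and COX6B2, whose intervals are wide.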
